A study of Mus musculus with 3 samples.

Results

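HSP90, small heat shock and chaperonin genes were examined in B cells sorted from mouse spleen. The 10 genes, Hsp90aa1, Hsp90ab1, Hspb1, Serpinh1, Hspd1, Hspe1, Ahsa1, Chordc1, Stip1 and Fkbp4, were selected by name out of the 27088 genes of the deposited table, at a time when their ratios between the libraries were already known. Their levels and ratios are therefore a description of the libraries. Female BALB/c mice, 6 weeks old at the start, formed the Control, PBS and SJMHE1 groups. In the PBS and SJMHE1 groups, allergic rhinitis was induced with ovalbumin (OVA), given intraperitoneally at 10 μg with 2 mg aluminum hydroxide in 200 μl PBS on days 0, 7 and 14 and intranasally at 100 μg once a day from day 21 through 27 and again from day 29 through 35. On days 0, 14 and 28, the PBS group received PBS under the skin, and the SJMHE1 group received 10 μg of SJMHE1, a peptide from the HSP60 of the parasitic worm Schistosoma japonicum, emulsified in incomplete Freund's adjuvant. The PBS injections held no adjuvant, so peptide and adjuvant cannot be told apart. Mice were sacrificed on day 36. The labels give their age as 13 weeks, which is more than this schedule adds to the starting age, and which of these is right is not given in the sources used here. After sacrifice, their B cells were isolated by sorting, and the samples of several mice were mixed within each group. This gave 1 pooled library per group, so no difference below has a replicate check and no test was possible. The Control mice were healthy, and their library is not analysed here.

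HSP90 is an abundant chaperone that brings kinases, steroid receptors and other client proteins into their active shape. Mammals carry an inducible form, encoded by Hsp90aa1, and a constitutive form, encoded by Hsp90ab1, and co-chaperones load clients onto HSP90 or set the pace of its ATPase cycle. The chaperonin of mitochondria is a barrel of HSP60, encoded by Hspd1, closed by a lid of HSP10, encoded by Hspe1. Small heat shock proteins such as HSP25, encoded by Hspb1, hold unfolding proteins without using ATP. In heat shock, heat shock factor 1 binds repeated elements in the promoters of many such genes.

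The promoter sequence of a gene does not depend on the libraries. A heat shock element is made of inverted units joined by any 2 bases, and its letters were searched as GAANNTTCNNGAA or TTCNNGAANNTTC for 3 units on both strands, in the window from 250 bases before to 50 bases after each RefSeq start (GRCm38.p6). Promoters were given for 8 of the 10 genes, all but Hsp90aa1 and Hsp90ab1. An element of 3 units was found in 3 of the 8 genes, Hspd1, Hspe1 and Chordc1, and in 179 of 27025 genes with a promoter, or 0.662%. Each of these 3 genes in fact held at least 4 units in a row (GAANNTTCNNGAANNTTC or TTCNNGAANNTTCNNGAA), which only 8 of all 27025 genes did, or 0.0296%. The sites of these 3 genes are shown because they are the longest runs among the 10 genes, each as 30 bases on the gene's own strand with the element in capitals.
Hspe1, chr1:55088053-55088082, plus strand: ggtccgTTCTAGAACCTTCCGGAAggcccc
Hspd1, chr1:55088053-55088082, minus strand: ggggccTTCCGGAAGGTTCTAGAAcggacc
Chordc1, chr9:18292260-18292289, plus strand: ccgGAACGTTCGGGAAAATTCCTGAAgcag

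The first 2 lines are the same stretch of chromosome 1 read on opposite strands, since Hspd1 and Hspe1 lie head to head. The element in capitals began 89 bases before the start of Hspe1 and 144 bases before one of the starts of Hspd1. In the GENCODE annotation, this stretch lay in an untranslated exon of 1 of the 2 Hspd1 transcripts that cover it and in an intron of the other. The window of the other Hspd1 start, chr1:55088194-55088493, held no run of 2 or more units. The Chordc1 element had 5 units, the only run of 5 among all the promoters. It began 4 bases before the RefSeq start of Chordc1 and lay in the untranslated part of the 1 transcript annotated there. Hspb1 and Fkbp4 held elements of 2 units (GAANNTTC or TTCNNGAA), which are shown for comparison because they are short.
Hspb1, chr5:135887791-135887820, plus strand: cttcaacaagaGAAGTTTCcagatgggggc
Hspb1, chr5:135887811-135887840, plus strand: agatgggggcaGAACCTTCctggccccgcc
Fkbp4, chr6:128438789-128438818, minus strand: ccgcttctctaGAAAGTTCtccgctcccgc

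Such pairs are common, with 17.0% of all genes holding at least 1, so that 5 of the 8 genes held an element of 2 or more units. The pairs of Hspb1 began 117 and 97 bases before its start, where no transcript is annotated. The pair of Fkbp4 began 151 bases before its start and lay in an exon of Gm10069 on the opposite strand. No such letters were found in the windows of Ahsa1, Stip1 and Serpinh1. A match of letters is a description and not a binding site. Carrying a long element was not tied to a higher ratio in every gene. Of the 8 genes with 4 units, 5 passed the filter on low values described below, and the values of the other two, which are not among the 10 genes, were an FPKM of 188.6 in PBS and 160 in SJMHE1 for Arpc2 and of 2.12 and 2.56 for Kctd18. Without the 10 genes, the 41 compared genes with an element of 3 units had a median log2 ratio of -0.01, with 19 higher and 22 lower, beside -0.01 for all 8271 compared genes with a promoter. Of these 41 genes, 2 lay above a log2 ratio of 1, or 4.88%, against 1.03% of the 8271, and 3 lay above 0.5, or 7.32%, against 4.55%. The 2 genes above 1 were Hsph1, a partner of HSP70, with a ratio of 2.27, and H2ac7, with 1.30 from 32 and 81 counts.

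Levels are given in FPKM, the reads of a gene per kilobase of its length, scaled to the depth of the library, as the authors calculated it. Total counts were 48267168 for PBS and 51280237 for SJMHE1. Square brackets and the word interval give bounds at the 95% level that follow from the read counts. These bounds cover counting error only and say nothing of the spread between mice. The HSP90 pair was among the most abundant messages of these cells. Together, the 10 genes took 0.351% of the counts in PBS and 0.60% in SJMHE1. Their summed level was 986 FPKM in PBS and 1723 FPKM in SJMHE1. As these are bulk samples, more cells with the message and more message per cell cannot be told apart.

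**Figure D1:**
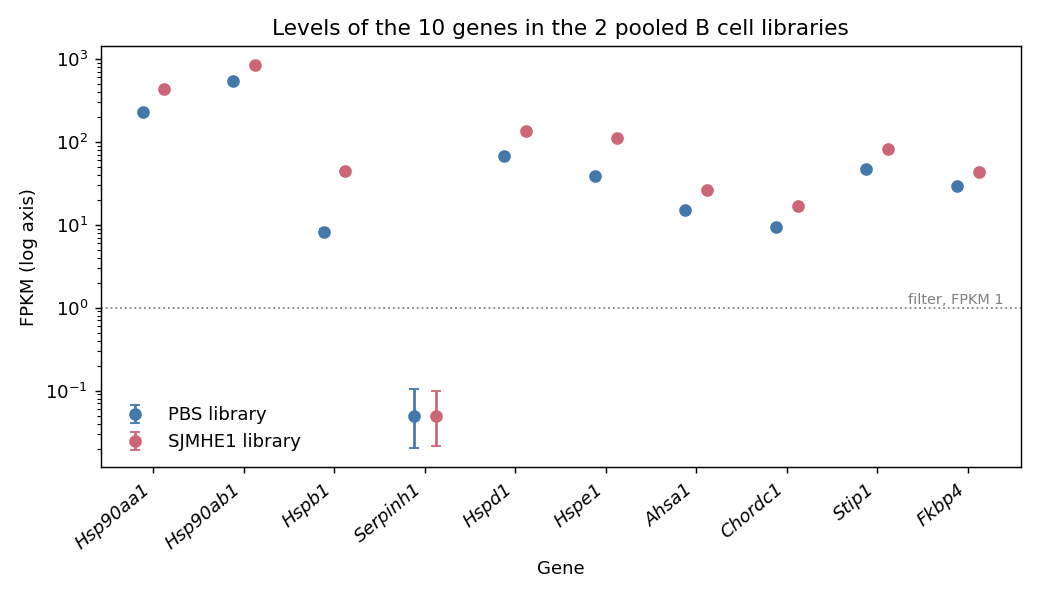
FPKM (log axis) of the 10 genes in the PBS library (blue) and the SJMHE1 library (red), with bars for the 95% counting interval, hidden behind the point where narrow. Of the 10 genes, 9 lie higher in the SJMHE1 library, and Serpinh1 lies at 0.05 in both, under the filter at 1.

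Hsp90ab1 (ENSMUSG00000023944, chr17:45567775-45573271, minus strand, 11 exons), the constitutive form, had an FPKM of 542 [538, 546] in PBS and 837 [833, 842] in SJMHE1. Hsp90aa1 (ENSMUSG00000021270, chr12:110690605-110702728, minus strand, 11 exons), the inducible form, had an FPKM of 229 [227, 231] in PBS and 430 [427, 432] in SJMHE1. Both forms were thus higher in the SJMHE1 library, and the counting intervals of the libraries did not overlap. Hsp90ab1 was the more abundant form in each library. By level among all 27088 genes, Hsp90ab1 ranked 65 in PBS and 43 in SJMHE1, and Hsp90aa1 ranked 157 and 88. On the log2 scale, the ratio of the SJMHE1 level to the PBS level was 0.63 for Hsp90ab1 (interval 0.62 to 0.64) and 0.91 for Hsp90aa1 (interval 0.89 to 0.93). The inducible form therefore differed more between the libraries than the constitutive form. Hsp90aa1 stood at 42.2% of the FPKM of Hsp90ab1 in PBS and at 51.3% in SJMHE1, a log2 difference of 0.28 with an interval from 0.26 to 0.30. The summed FPKM of the HSP90 pair was 771 in PBS and 1267 in SJMHE1.

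The remaining paralogs of HSP90 serve other compartments. Hsp90b1, the HSP90 of the endoplasmic reticulum, had an FPKM of 133 in PBS and 198 in SJMHE1, a log2 ratio of 0.57. Trap1, the HSP90 of mitochondria, had an FPKM of 30.4 in PBS and 31.5 in SJMHE1, a log2 ratio of 0.05 whose interval, -0.01 to 0.11, included 0.

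Hspd1 (ENSMUSG00000025980, chr1:55077835-55088243, minus strand, 12 exons), the HSP60 of the mouse, had an FPKM of 67.9 [66.6, 69.3] in PBS and 135 [133, 137] in SJMHE1. Its lid partner Hspe1 (ENSMUSG00000073676, chr1:55088132-55091307, plus strand, 4 exons) had an FPKM of 38.3 [37.0, 39.7] in PBS and 110 [108, 112] in SJMHE1. Both parts of the mitochondrial chaperonin were higher in the SJMHE1 library, the lid more so than the barrel. The log2 ratio was 0.99 for Hspd1 (interval 0.95 to 1.02) and 1.52 for Hspe1 (interval 1.46 to 1.58). Hspe1 stood at 56.4% of the FPKM of Hspd1 in PBS and at 81.7% in SJMHE1, a log2 difference of 0.53 with an interval from 0.47 to 0.60. The annotated genes overlap by 112 bases on opposite strands, and whether the counting used strand is not given in the sources used here, so reads in this stretch cannot be assigned.

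Hspb1 (ENSMUSG00000004951, chr5:135887919-135889563, plus strand, 3 exons), which encodes HSP25, showed the largest ratio of the 10 genes. Its FPKM was 8.19 [7.46, 8.97] in PBS and 44.4 [42.7, 46.1] in SJMHE1, from 464 and 2662 counts. The log2 ratio was 2.44 (interval 2.30 to 2.58), a level 5.42 times as high. By level among all genes, Hspb1 ranked 5157 in PBS and 877 in SJMHE1. By ratio, it ranked 39 among the 12433 genes compared and 3 among the 11366 genes that reached an FPKM of 1 in each library. None of the other small heat shock genes lay past a log2 ratio of 1. Of 8 genes of that family found in the table, 6 could be compared, and apart from Hspb1 none had more than 1.94 FPKM in a library. Hspb9 had a log2 ratio of 0.23 from 12 and 16 counts, Hspb6 of -0.55 from 105 and 77 counts, and Cryab, which encodes alpha B-crystallin, of -0.39 from 58 and 46 counts. Hspb7 and Hspb8 were listed at 0 in at least 1 library.

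The co-chaperones among the 10 genes act at different steps of the HSP90 cycle. Stip1 (ENSMUSG00000024966, chr19:7020702-7039967, minus strand, 14 exons), known as HOP, links HSP70 to HSP90 and had an FPKM of 46.7 [45.5, 48.0] in PBS and 81.5 [79.9, 83.1] in SJMHE1. Ahsa1 (ENSMUSG00000021037, chr12:87266479-87273979, plus strand, 9 exons), which stimulates the ATPase of HSP90, had an FPKM of 15.1 [14.6, 15.6] in PBS and 25.9 [25.3, 26.5] in SJMHE1. Chordc1 (ENSMUSG00000001774, chr9:18292125-18317442, plus strand, 11 exons), a zinc-binding co-chaperone, had an FPKM of 9.46 [9.17, 9.76] in PBS and 17.0 [16.6, 17.4] in SJMHE1. These 3 genes were higher in the SJMHE1 library by close to the same factor. The log2 ratio was 0.80 for Stip1 (interval 0.75 to 0.85), 0.78 for Ahsa1 (interval 0.72 to 0.84) and 0.84 for Chordc1 (interval 0.78 to 0.90). Fkbp4 (ENSMUSG00000030357, chr6:128429735-128438677, minus strand, 10 exons), an immunophilin found in steroid receptor complexes, had an FPKM of 29.5 [28.7, 30.4] in PBS and 42.7 [41.7, 43.7] in SJMHE1. Its log2 ratio of 0.53 (interval 0.48 to 0.59) was the lowest of the 9 genes that passed the filter.

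Set against the summed FPKM of the HSP90 pair, the co-chaperones kept close to their share. Stip1 stood at 6.06% of the pair in PBS and 6.43% in SJMHE1, and Ahsa1 at 1.96% and 2.04%. Chordc1 stood at 1.23% in PBS and 1.34% in SJMHE1. Only Fkbp4 had the smaller share in SJMHE1, with 3.83% in PBS and 3.37% in SJMHE1.

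Serpinh1 (ENSMUSG00000070436, chr7:99345376-99353239, minus strand, 5 exons) encodes HSP47, the collagen chaperone of the endoplasmic reticulum. It was listed at an FPKM of 0.05 in both libraries, from 7 counts in PBS and 8 counts in SJMHE1. The interval of its log2 ratio ran from -1.55 to 1.81, so no difference was detectable at this depth, and it did not pass the filter. Genes of the collagen-producing cells that use HSP47 were near 0 as well. Of 8 stromal markers, Col1a2, Col3a1, Dcn, Des, Lum and Pdgfra were listed at 0 in at least 1 library, and the summed FPKM of the 8 was 0.32 in PBS and 0.30 in SJMHE1. Of 15 collagen and collagen-processing genes, 6 could be compared, 5 higher and 1 lower. The highest were Col5a1, with a log2 ratio of 2.14 from 26 and 109 counts, and Plod1, with 1.0 from 236 and 499 counts. The lowest were Plod2, with -2.58 from 54 and 9 counts, and Plod3, with 0.04.

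For comparison with other genes, those that reached an FPKM of 1 in either library and were not listed at 0 in the other were kept, which left 12433 genes and 9 of the 10 members of the group. A log2 ratio above 1 or below -1 was taken as the threshold. Hspb1 and Hspe1 were the 2 of 9 genes above 1, against 302 of all genes compared, or 2.43%. With a log2 ratio above 0.5, it was 9 of 9 genes, against 905 of all genes, or 7.28%. No gene of the group lay below -1, as 3.57% of all genes did. Because the genes were picked with these ratios known, nothing is read from the counts. The median log2 ratio was 0.84 for the 9 genes and -0.01 for all genes compared, of which the middle 90% lay between -0.82 and 0.64. Hspd1 lay just under the threshold. In the order of the ratios, Hspb1 stood above Hspe1, followed by Hspd1, Hsp90aa1, Chordc1, Stip1, Ahsa1, Hsp90ab1 and Fkbp4. Counting intervals overlapped for the neighbours Hsp90aa1 and Chordc1, Chordc1 and Stip1, and Stip1 and Ahsa1, and did not overlap for the other neighbours. In the order of the levels, neighbours overlapped only for Hspb1 and Fkbp4 in the SJMHE1 library.

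**Figure D2:**
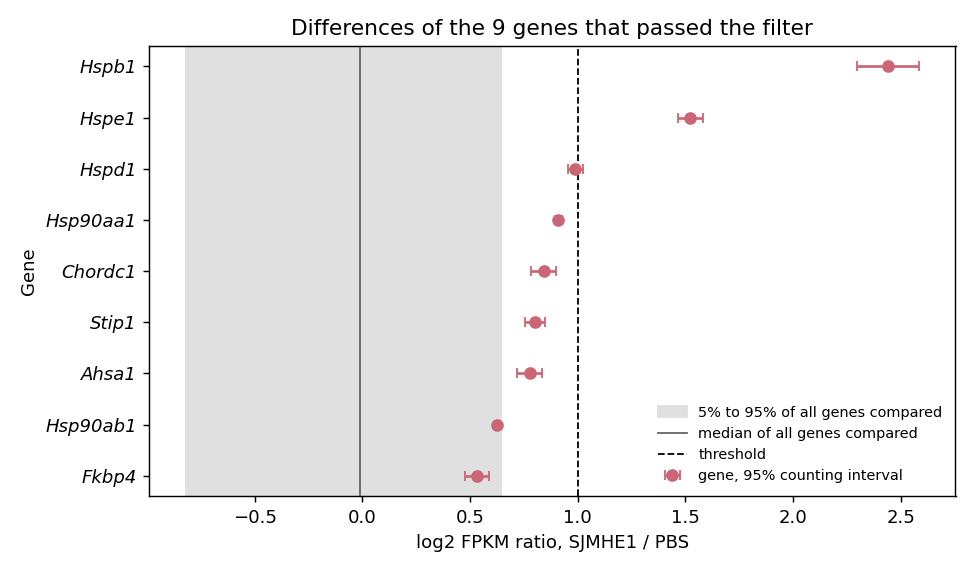
Log2 FPKM ratio of SJMHE1 to PBS (horizontal axis) of the 9 genes that passed the filter, with bars for the 95% counting interval. The grey band holds the middle 90% of all 12433 genes compared, from -0.82 to 0.64, and the dashed line is the threshold of 1. Hspb1 and Hspe1 lie past the threshold, and Hsp90ab1 and Fkbp4 lie inside the band.

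The ratios did not follow the order of the levels throughout, as the plot of level against difference shows. Hsp90ab1, the most abundant of the 9, had a ratio of 0.63, and Hspb1, the least abundant in PBS, had the largest, 2.44. Fkbp4, with a level between these in PBS, had the lowest ratio, 0.53. Chordc1, the least abundant in SJMHE1, had 0.84.

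**Figure D3:**
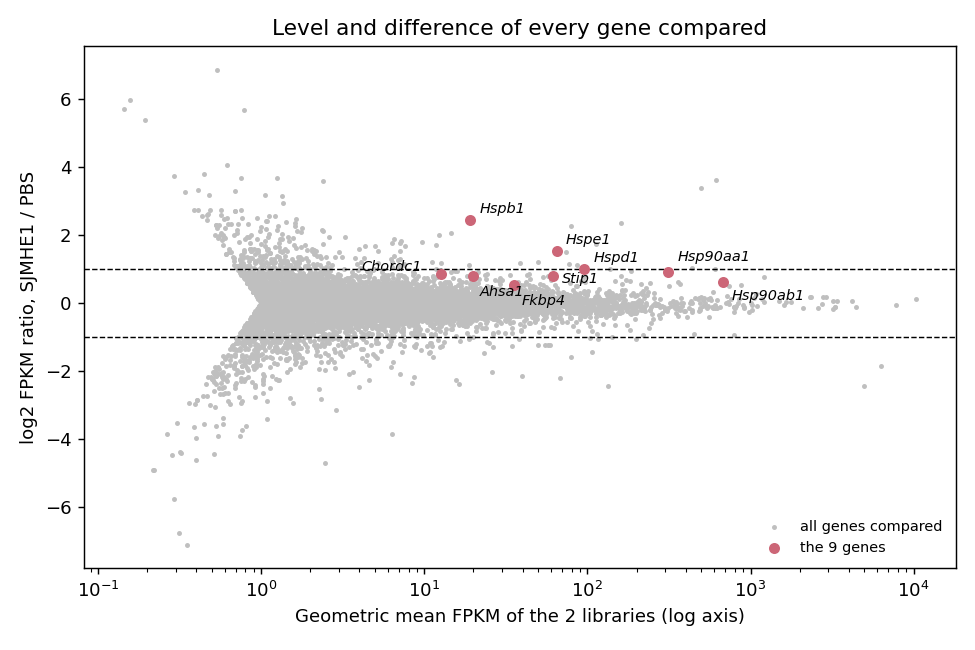
Log2 FPKM ratio of SJMHE1 to PBS against the geometric mean FPKM of the 2 libraries (log axis) for all 12433 genes compared (grey) and the 9 genes of the group (red). Dashed lines mark log2 ratios of 1 and -1. The 9 genes lie at ratios from 0.53 to 2.44, and 2 of them lie above the upper dashed line.

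Some reads of these genes could come from near copies elsewhere in the genome. Of all stretches of 50 bases in the transcripts, 50.1% of those in Hspb1 also occur in another gene, as do 47.5% of those in Hsp90aa1, 42.1% in Hspd1 and 22.8% in Hspe1, while the share was at most 5.59% in the remaining genes and 0% in Serpinh1. The levels of Hspb1, Hsp90aa1, Hspd1 and Hspe1 are uncertain to that degree. The copies named here held few counts beside the genes. Gm9817 and Hsp25-ps1, copies of Hspb1, held 36 counts together in PBS and 178 in SJMHE1. Hspd1-ps3, a copy of Hspd1, held 341 and 472 counts. Gm12346, Gm5511 and Gm5844, copies of Hsp90aa1, held 1611 and 2731 counts together. When the counts of these copies were added to the gene, the log2 ratio was 2.42 for Hspb1, 0.90 for Hsp90aa1 and 0.97 for Hspd1. Stip1 shares 5.59% of its stretches with Cfap20, a gene of its own with 2822 counts in PBS and 2083 in SJMHE1, and the sum of both genes gave a log2 ratio of 0.46. Chordc1 overlaps the pseudogene Gm19178 by 1819 bases on the opposite strand, with 96 and 68 counts for Gm19178.

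Other genes of the HSP90 and chaperonin machinery were taken from lists written from general knowledge, for which reaching an FPKM of 0.1 in either library was enough. Under this filter, 6.21% of 18426 genes had a log2 ratio above 1, 9.18% had one below -1, and the median was -0.03. The co-chaperones outside the group were divided between higher and lower. Of 26 compared, 15 were higher and 11 lower, none lay past the threshold, and the median was 0.09. The highest were Ahsa2, a paralog of Ahsa1, with an FPKM of 6.38 in PBS and 11.3 in SJMHE1 and a log2 ratio of 0.83, and Cdc37l1, with 0.57. The lowest were Pih1d1, with -0.41, and Unc45a, a chaperone of myosin, with -0.25.

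The cytosolic chaperonin TRiC, folds actin and tubulin. Of its 9 genes, 7 were higher and 2 lower, and the median log2 ratio was 0.07. Cct3, at 0.33, and Cct6a, at 0.28, were the highest, and Cct2, at -0.08, and Cct6b, at -0.89 from 27 and 15 counts, were the lowest. Prefoldin, which hands clients to TRiC, had 3 genes higher and 3 lower, with a median of 0.02. Pfdn6, at 0.49, and Vbp1, at 0.19, were the highest, and Pfdn4, at -0.13, and Pfdn5, at -0.08, the lowest. Among 13 other chaperones and proteases of mitochondria, 9 were higher and 3 lower, none lay past the threshold, and the median was 0.07. Grpel2, at 0.37, and Afg3l2, at 0.31, were the highest, and Grpel1, a nucleotide exchange factor, at -0.21, and the protease Lonp1, at -0.03, the lowest. Hspd1 and Hspe1, with ratios of 0.99 and 1.52, thus lay above all 13 of them.

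The HSP70 system, which passes clients to HSP90 through Stip1, had the highest median of the chaperone lists, at 1.37. This list was written with earlier results known and left out other HSP70 genes and co-chaperones, so its median depends on the genes listed. Examples left out are Hspa9 at -0.03, Hspa5 at 0.28, Dnaja2 at 0.04, Bag1 at -0.29 and Bag2 at 0.84. Of the 13 genes listed, 10 were higher and 3 lower, and 8 lay above 1. These were Hspa1b at 3.60, Hspa1a at 3.39, Dnajb1 at 2.34, Hsph1 at 2.27, Hspa1l at 1.52, Dnaja1 at 1.5, Bag3 at 1.37 and Hspa8 at 1.02. Hspa2, at -0.27, and Hspa13, at -0.16, were the lowest. Hspb1 thus lay between Hspa1a and Dnajb1. Hsf1, which encodes heat shock factor 1, had an FPKM of 7.35 in PBS and 7.93 in SJMHE1, a log2 ratio of 0.11 (interval 0.04 to 0.18). Hsf4 had a log2 ratio of 1.03 from 27 and 59 counts, Hsf2 of -0.19 and Hsbp1, which encodes a protein that binds heat shock factor 1, of -0.21.

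**Figure D4:**
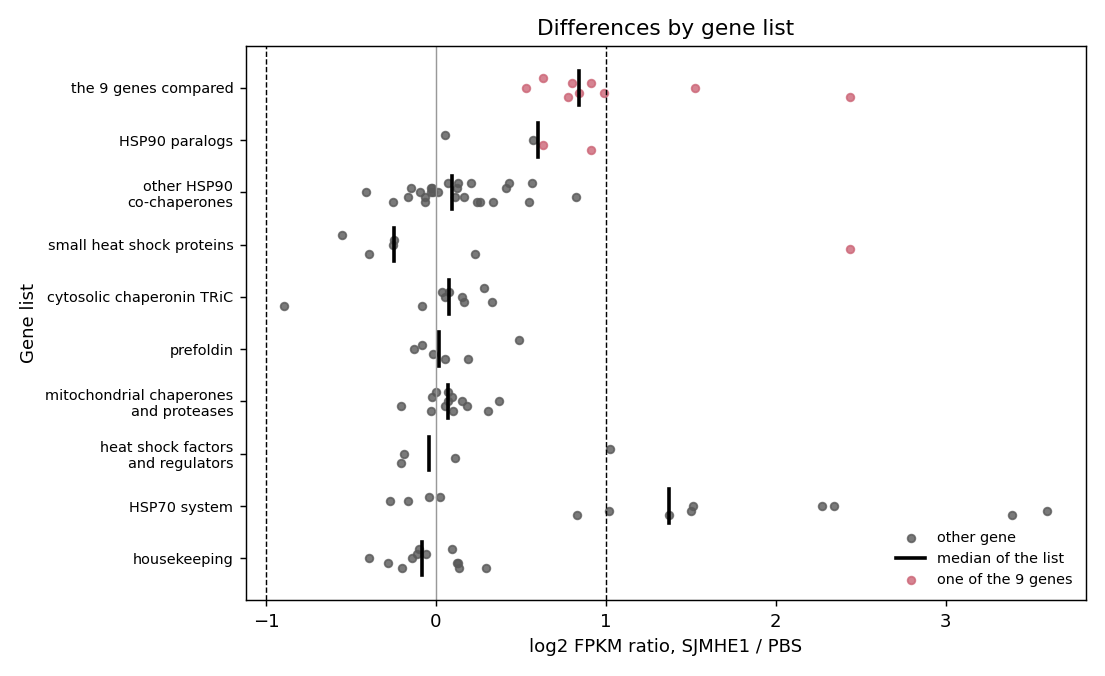
Log2 FPKM ratio of SJMHE1 to PBS (horizontal axis) of each compared gene by gene list, with the 9 compared genes of the group in red, other genes in grey and a black bar at the median of each list. The medians are 0.84 for the group, 1.37 for the HSP70 system and between -0.25 and 0.60 for the other lists, and dashed lines mark ratios of 1 and -1.

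Steroid receptors are classical clients of HSP90, and Fkbp4 sits in their complexes. Of 4 client receptors compared, 1 was higher and 3 lower. Nr3c1, the glucocorticoid receptor, had an FPKM of 22.5 in PBS and 26.6 in SJMHE1, a log2 ratio of 0.24, and Esr1 had -0.10. The lowest were Nr3c2, the mineralocorticoid receptor, at -0.61, and Ahr, at -0.39. Of 7 genes that glucocorticoids are known to induce, 1 was higher and 6 lower, with a median of -0.37. Dusp1, at 0.29, and Fkbp5, at -0.17, were the highest, and Per1, at -0.88, and Zbtb16, at -2.50 from 49 and 10 counts, the lowest.

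Genes of oxidative and proteotoxic stress lay on both sides of 0. Of 13 genes, 5 were higher and 8 lower, and the median log2 ratio was -0.04. The highest was Nqo1, at 0.85 from 26 and 49 counts. Atf3, at -1.25, and Ddit3, at -1.02, lay below -1. Of 12 housekeeping genes, 5 were higher and 7 lower, with a median of -0.08. Tfrc, at 0.30, and Actb, at 0.14, were the highest, and Gapdh, at -0.40, and Ywhaz, at -0.28, the lowest.

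Terms of the Gene Ontology, as the authors' table assigns them, were examined without the 10 genes. Hsp90 protein binding had 17 of 31 compared genes higher and 14 lower, none past the threshold, with Ahsa2 and Ppid at 0.83 and 0.41 the highest and Hdac8 and Ern1 at -0.48 and -0.38 the lowest. Unfolded protein binding had 44 of 74 genes higher and 29 lower, and all 6 above 1 were genes of the HSP70 system named above. The lowest there were Cct6b and Dnajb13, at -0.62. Chaperone binding had 45 of 82 genes higher and 37 lower. Its 4 genes above 1 were again of the HSP70 system, and Tg, at -1.07, and Prnp, at -1.03, were among the genes below -1. Protein refolding had 9 of 13 genes higher and 4 lower, with the 4 above 1 of the HSP70 system and a median of 0.28. Response to heat had 18 of 34 genes higher and 15 lower, with a median of 0.02. Beside Hspa1a, Hspa1b and Dnaja1, its genes above 1 were P2rx3, at 1.46 from 7 and 19 counts, Pklr, at 1.34, and Cd14, at 1.04, while Gm49320, at -2.89 from 83 and 12 counts, and Eif2b1, at -0.37, were the lowest. These lists share genes.

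The markers of the sorted cells and of other cells were measured beside these results. All 11 B cell markers were present, with a summed FPKM of 7739 in PBS and 7546 in SJMHE1, 6 higher and 5 lower. Cd74 alone held 4643 and 4297 of these sums. The log2 ratios ran from -0.14 for Ebf1 to 0.68 for Cr2, which had an FPKM of 136 in PBS and 218 in SJMHE1. Markers of other cell types were not equal between the libraries either. All 10 T cell markers were lower in SJMHE1, 9 of them below -1, with a summed FPKM of 58.4 in PBS and 32.7 in SJMHE1. Lck, with a log2 ratio of -0.15, alone held 27.9 and 25.2 of these sums. All 7 NK cell markers were lower, 6 of them below -1, with sums of 17.8 and 7.10. Of 6 dendritic cell markers compared, 5 were lower and 1 higher, with sums of 8.13 and 3.78 and Batf3 listed at 0 in at least 1 library. Plasma cell markers were lower in 6 of 7 genes, with sums of 654 and 549. Erythroid markers were higher in all 8 genes, with sums of 152 and 198, and neutrophil markers in 4 of 7 genes, with sums of 321 and 426. Macrophage markers were higher in 7 of 10 genes, with sums of 30.2 and 26.4. Platelet markers had sums of 12.1 and 15.4, of which Itgb3 alone held 10.9 and 14.2, with Gp1bb listed at 0 in at least 1 library. Endothelial markers had sums of 38.5 and 37.5, of which Pecam1 alone held 38.0 and 37.1. Emcn, Kdr and Tek were listed at 0 in at least 1 library. The part of these cells in the levels of the 10 genes was not tested.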

How the data were processed

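RNA of sorted spleen B cells was sequenced after removal of ribosomal RNA, with 1 pooled library per group and 3 libraries in the series. The authors deposited whole-number read counts per gene, not normalized, and FPKM values rounded to 2 decimals. The submitters' processing notes name bcl2fastq 2.0, HISAT2, StringTie, DESeq2, limma and the build mm10. How these were set, and whether strand was used, is not given in the sources used here. For the 9 genes compared, the gene length implied by FPKM and counts was 1.14 times the merged exons of GENCODE M21, where 27025 of 27088 identifiers were found, so levels refer to merged exons. The table gives Ahsa1 other coordinates than GENCODE M21, and the other 9 genes the same. The names of 2 value columns match no sample, and they were not used, so no comparison with Control was made.

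The log2 ratio of the deposited FPKM was taken without a pseudocount, with an interval at the 95% level by the exact Clopper-Pearson method on both counts. Single levels carry exact Poisson intervals. The members and lists were chosen with earlier results of these data known. All 10 members are named, and of other lists the 2 highest and 2 lowest genes and those past the threshold, beside Hspa1a, Hspa1b and Hsf1, with Esr1 and the marker genes at 0 named after their values were seen. Arpc2, Kctd18, H2ac7 and the near copies were also named after their values were seen. The same holds for Cr2, Ebf1, Cd74, Lck, Itgb3, Pecam1 and the HSP70 genes and co-chaperones given as left out of their list. The calculation was tested on simulated counts. RefSeq promoters were matched by symbol. Calculations used scipy 1.17.1, pandas 2.3.3 and numpy 2.4.6 in Python 3.11.15, with edgeR 4.0.16 in R 4.3.3 for TMM scaling alone, and figures used matplotlib 3.10.9. Alternatives were other pseudocounts, scalings, filters, thresholds and motif lengths. Proteins were not compared, and the values of some genes are not given.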

Additional observations from a re-analysis of the deposited data

How the results depend on the processing

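The 9 genes compared had a log2 ratio above 0.5 under every pseudocount, scaling and filter tried. Hspb1 and Hspe1 were past the threshold of 1 under pseudocounts of 0.1 and 1, median centring, counts in place of FPKM, no filter, the filter applied to each library and protein-coding genes alone. With FPKM rescaled to equal sums and with TMM-scaled counts, 3 genes were past it, Hspd1 being the third, and with a threshold of 0.5 it was 9. Rescaling moved the median of the 9 genes from 0.84 to 0.93 and that of all genes from -0.01 to 0.07, and TMM-scaled counts gave medians of 0.87 and 0.01. Without Hspb1 and Serpinh1, the median was 0.82. Elements of 2 units in place of 3 were found in 5 of 8 promoters, and elements of 4 units, chosen after seeing the data, in 3. Adding the counts of near copies, also chosen after seeing the data, took Stip1, with Cfap20, from 0.80 to 0.46. The filter on low values sets the background, with 6.69% of genes above 1 without it and 0.889% with it applied to each library. No paired analysis was possible because the groups hold a single library each. For the same reason no replicate could be left out. The alternatives for Control were not run, since its library was not used.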
